A study of Mus musculus with 15 samples.

Results

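The comparison set all arrays of proton-irradiated mice against all arrays of sham mice, to find differences that held whichever day after exposure was sampled. The 12 proton arrays and the 3 sham arrays make up all 15 arrays of the series. The proton groups came from male C57Bl/6NT mice, 8 to 9 months old, whose whole body received 90 cGy of 1 GeV protons, with left-ventricular cells taken at day 1 (2 arrays), day 3 (3 arrays), day 5 (3 arrays), day 12 (2 arrays) and day 26 (2 arrays). The sham group held mice of the same strain, sex and age at day 1 (2 arrays) and day 3 (1 array), so at days 5, 12 and 26 time and radiation cannot be told apart. Day 5 replicates 1 and 2 differed by an SD of only 0.0768 in log2 signal over the genes tested, against 0.222 for the next closest of 105 pairs of arrays, and were averaged, which left 11 proton samples and 3 sham samples. Each gene was represented by its brightest probe set that carried 1 gene symbol, and 12102 of 19937 genes had a mean above the median probe set, at a log2 signal of 5.00. Nupr1l, with a mean of 5.00193, was the named gene just inside that limit, and Iffo2, with 5.00161, the one just outside it.

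The cells were cardiomyocytes freed by perfusing the heart with collagenase and returned to calcium in steps, and the labels warn that inflammatory or endothelial cells could remain. The mean log2 signal of 10 cardiomyocyte markers was even, from 11.88 to 12.01 (median 11.95) in the proton samples and 11.93, 11.97 and 12.01 in the sham samples. Markers of other cells varied far more. The 11 measured fibroblast markers had a mean between 6.71 and 8.17 in proton samples (median 7.50), against 6.86 to 7.29 in sham samples, and all 11 averaged higher with protons. The 7 measured lymphocyte markers ranged from 4.39 to 6.41 in proton samples (median 5.66), against 4.92 to 5.23 in sham samples. All 7 averaged higher with protons, 4 with an unadjusted p under 0.05 in the test described below (57.1%, against 6.19% of all genes). Of 13 such markers on the array, only these 7 passed the signal limit of 5.00, a mean taken mostly over proton arrays. Their mean was below that limit in sham day 1 replicate 1 (4.92) and sham day 3 replicate 1 (4.96). The limit thus favoured members high in proton samples, and the count and share add no separate evidence. All 9 mesothelial markers (median difference 0.63, 0 at that level) and all 6 adipocyte markers (0.64, 2 at that level) were higher too. Of 6 erythroid and platelet markers, 5 were lower. Genes of the airway lining were also bright, although no label names lung tissue. The mean of 7 such genes, a list added after values were seen, ran from 6.37 to 9.76 in proton samples (median 8.14), against 6.09, 8.09 and 5.23 in the sham samples. In bulk RNA, fewer cells of a type and less RNA per cell cannot be told apart. Proton day 1 replicate 2, day 3 replicate 3 and day 12 replicate 2 stood together at one end of the main axis of variation between arrays. Of the 40 genes held at every day that are described below, sham day 1 replicate 2 was the highest sham sample in 20 of the 30 higher genes and the lowest in 7 of the 10 lower ones.

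**Figure D1:**
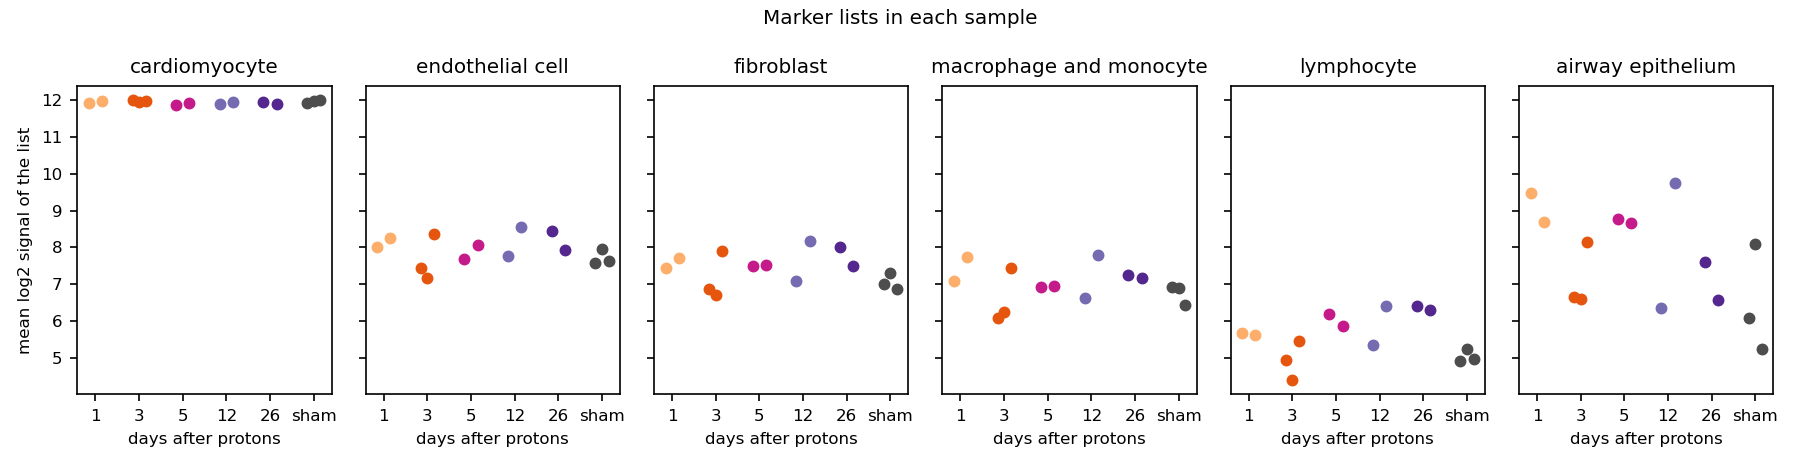
Mean log2 signal of 5 marker lists and of an airway list (y axis) in each sample, as points, by day after protons with sham at the right (x axis, evenly spaced). Cardiomyocyte markers lie between 11.88 and 12.01 in all 14 samples, while airway genes span 6.37 to 9.76 in proton samples and 5.23 to 8.09 in sham samples.

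The lists described first hold small noncoding RNAs of the nucleus and genes of the endoplasmic reticulum (ER), where secreted and membrane proteins fold. When unfolded proteins build up in the ER, the sensors Atf6, Ern1 and Eif2ak3 raise the output of chaperones, a program called the unfolded protein response. Heart muscle cells also use a specialised form of this membrane system, the sarcoplasmic reticulum, to store and release the calcium that drives each beat. Small nucleolar RNAs guide the chemical modification of ribosomal RNA, and the related Cajal body RNAs do the same for spliceosomal RNAs.

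Averaged over the 5 days, 3 of 12102 genes rose with protons at an adjusted p under 0.05 (0.0248%), and none fell. They were Scarna13, Snora16a and Pde7a. The test was limma's moderated test on log2 values, with Benjamini-Hochberg adjustment across the 12102 genes, and differences below carry its standard error (SE). At an unadjusted p under 0.05 there were 1458 genes (12%), 749 higher (6.19%) and 709 lower (5.86%). This even split depended on the scaling, since equal array medians gave 359 higher and 791 lower, and quantile normalization 599 higher and 858 lower. The total was 768 without sham day 1 replicate 1, 856 without the day 3 sham, 2349 without proton day 12 replicate 1, 952 in the time-matched fit of days 1 and 3, and 596 with the airway genes as a covariate. The median difference of all genes was 0.01, with 53.3% of genes above sham. A stricter reading asked for the same sign and an unadjusted p under 0.05 at each of the 5 days separately. That held for 40 genes (0.331%), of which 30 were higher (0.248%) and 10 lower (0.0826%). With equal array medians 29 were held, 16 of them higher, and with quantile normalization 42, 26 of them higher. The 5 days share the same 3 sham samples, so an odd sham value enters all of them, and none of the 40 held once the largest of its 5 p-values was adjusted over all genes. No label states that each array is a separate animal, and the small number of arrays limits the precision, so p-values measure only the spread between these samples.

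The differences of the 40 genes were moderate. The 30 higher genes lay between 0.21 and 1.60 on the log2 scale (median 0.38, a fold of 1.30), and the 10 lower genes between -0.66 and -0.31 (median -0.39, a fold of 0.765). In 33 of the 40, every proton sample lay on the same side of all 3 sham samples, a pattern found in 210 of all genes tested (1.74%), 100 above (0.826%) and 110 below (0.909%). The 40 were chosen for their distance from these same sham samples, so the 33 add no separate evidence. With equal array medians the pattern was found in 145 genes, 38 above and 107 below. At the edge of the rule, Nceh1 was held with a largest day p of 0.0494 and Nampt with 0.0489, while Igha had the smallest such value, 0.00254. Igha passed the signal limit only through its proton samples, as described below. The count rests on single arrays, since it was 14 without proton day 1 replicate 2, 18 without proton day 12 replicate 2, 23 without proton day 5 replicate 3, 26 without proton day 26 replicate 1, 25 without the day 3 sham and 153 without sham day 1 replicate 2. Among the 30 higher genes, 3 were in the list of small nuclear and nucleolar RNAs, 2 in that of ER chaperones, 1 among calcium handling genes and 1 among p53 targets, and the ER degradation, sensor and translocon lists held none.

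**Figure D2:**
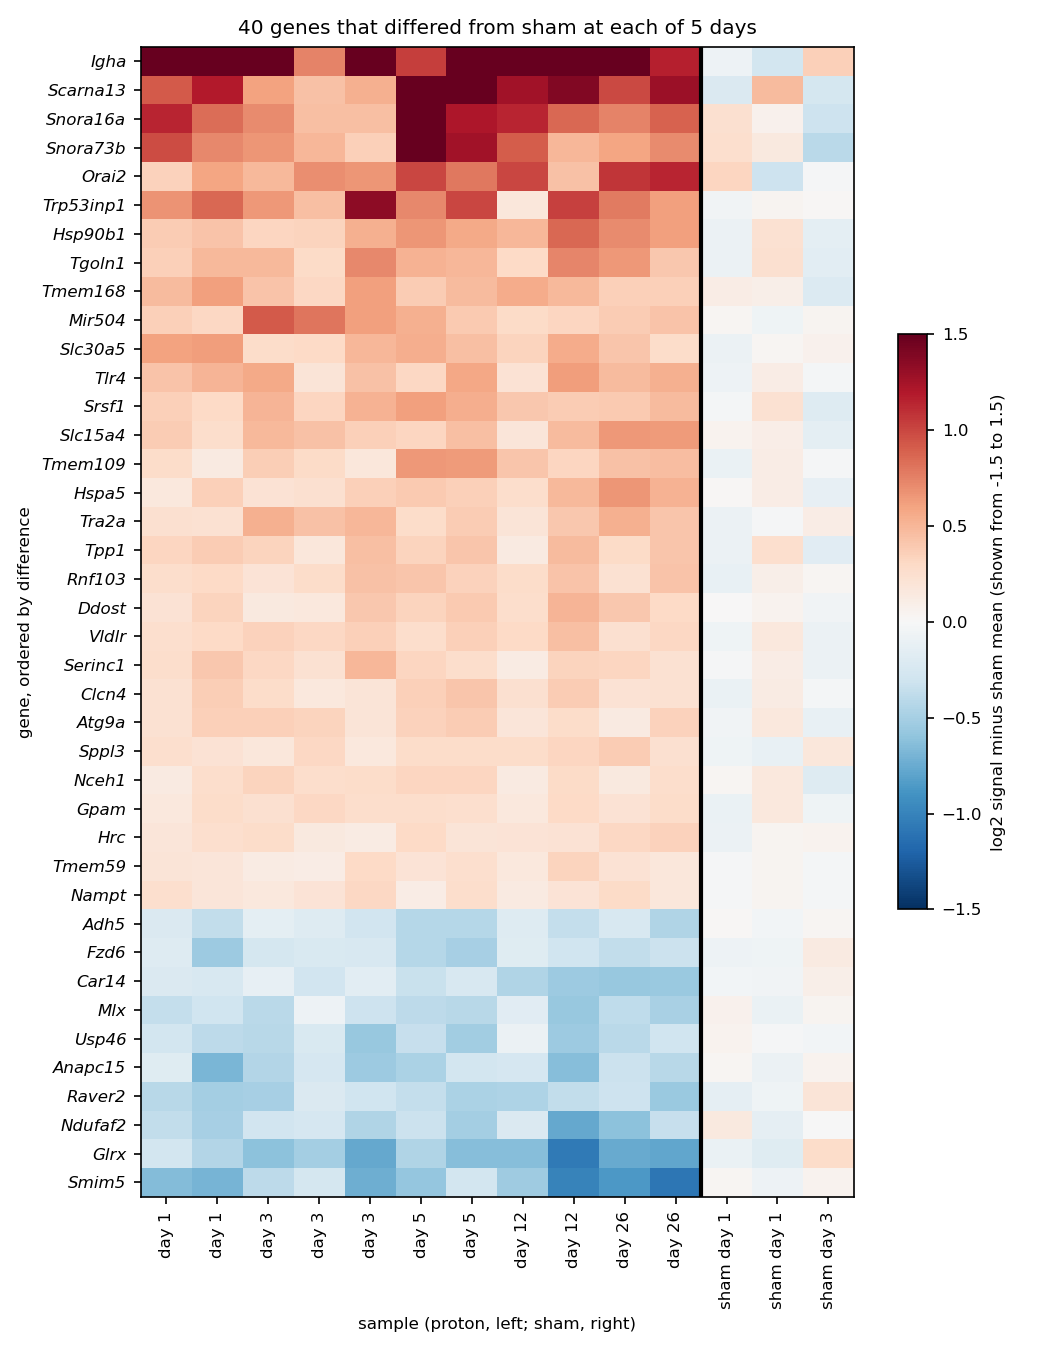
Log2 signal minus the sham mean (colour, shown from -1.5 to 1.5) of the 40 genes held at every day (rows, ordered by difference) in 11 proton samples (left) and 3 sham samples (right). The 30 higher genes are red in nearly every proton column and the 10 lower genes blue, and Igha, at 1.60, and Smim5, at -0.66, mark the ends.

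Scarna13, a Cajal body RNA, had the smallest p. Its log2 signal ran from 8.24 to 9.77 in proton samples (median 8.99), against 7.59, 8.27 and 7.54 in sham samples. The lowest proton value sat just under the highest sham value, so the groups touched. It rose by 1.18 ± 0.14, a fold of 2.26 (limma, adjusted p = 0.0174), and by day the differences were 1.06, 0.53, 1.84, 1.33 and 1.14 at days 1, 3, 5, 12 and 26. Snora16a, an H/ACA-type nucleolar RNA, ran from 7.00 to 8.23 in proton samples (median 7.42), against 6.80, 6.63 and 6.24 in sham samples. The groups did not overlap. It rose by 0.96 ± 0.13, a fold of 1.94 (limma, adjusted p = 0.0411). Its day differences from the pooled sham, 0.99, 0.53, 1.44, 1.00 and 0.81, were, like those of Scarna13, smallest at day 3 and largest at day 5. The exact two-sided permutation test over the 364 splits into 11 and 3 samples gave 0.00549 for Scarna13 and 0.00275, the smallest p it can give, for Snora16a. Both genes were picked by their p, so this checks the assumptions of the fit and adds no separate evidence. The call of Scarna13 was lost without proton day 1 replicate 2, day 3 replicate 1 or day 26 replicate 2, sham day 1 replicate 1 or the day 3 sham (adjusted p from 0.0563 to 0.142, differences from 1.05 to 1.41 over the arrays left out in turn). That of Snora16a was lost without any of 10 of the 15 arrays, among them every sham array (0.0508 to 0.199, differences from 0.80 to 1.08). With days 1 and 3 alone and the day as a term, the time-matched differences were 0.87 for Scarna13 and 0.84 for Snora16a (limma, adjusted p = 0.628 and 0.419).

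**Figure D3:**
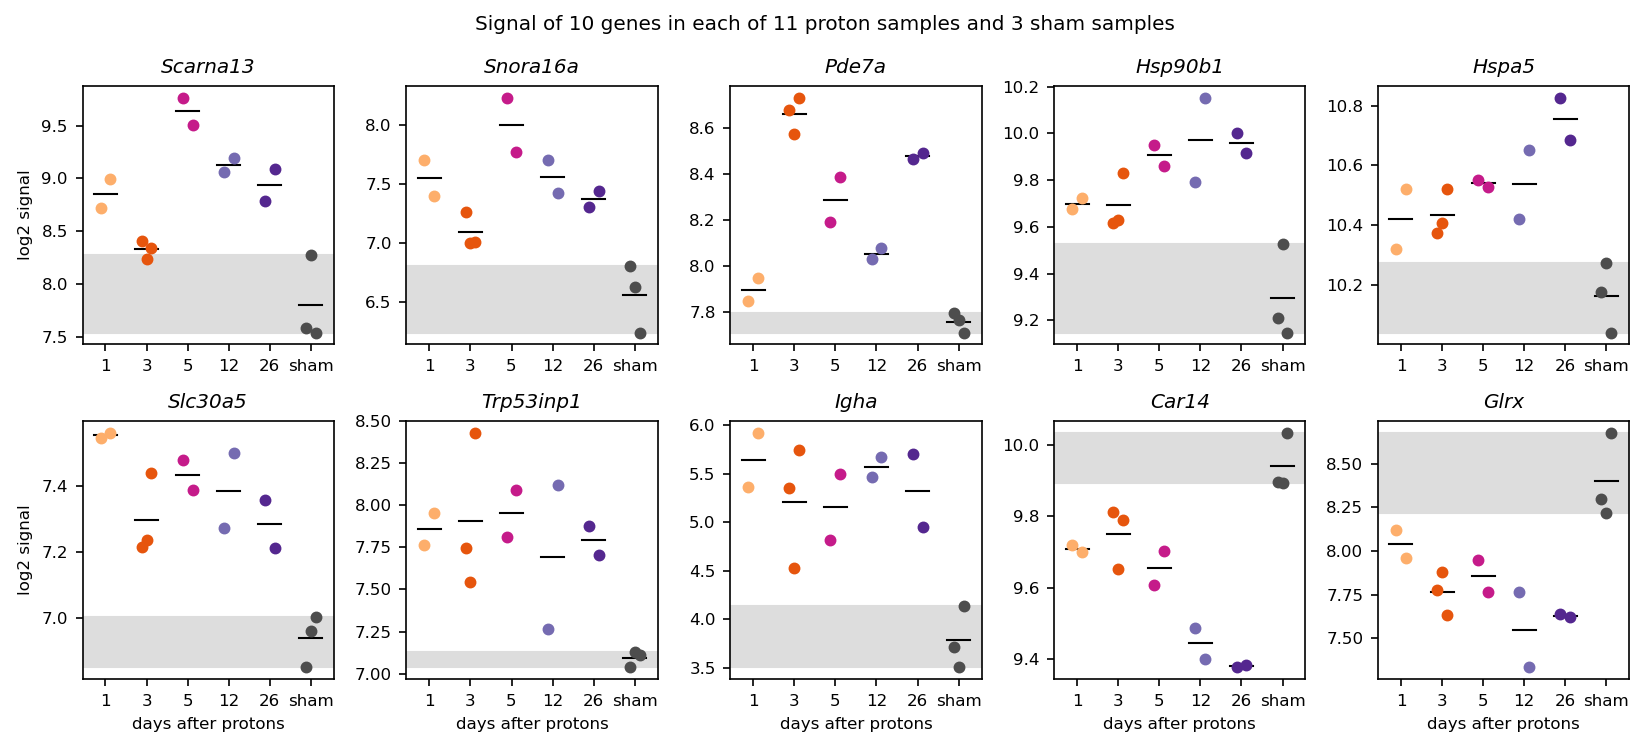
Log2 signal (y axis) of 10 genes in each of 11 proton samples, by day, and 3 sham samples at the right (x axis), with points for samples, lines for group means and grey bands for the sham range. Snora16a, Pde7a, Hsp90b1 and Hspa5 lie above the band in every proton sample and Car14 and Glrx below it, while Scarna13 reaches down to 8.24 at day 3, inside its band.

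All 35 measured members of a list of 80 were above sham, 20 with an unadjusted p under 0.05 (57.1%, against 6.19% of all genes) and none lower at that level, with 2 past the adjusted threshold and 3 held at every day. Their median difference was 0.35, against 0.01 for all genes. In the time-matched fit of days 1 and 3, the only days with sham arrays, the median was 0.18, with 29 of 35 above sham, 11 at an unadjusted p under 0.05 and 0 past the adjusted threshold. Against sham of day 1 only, 31 were above and 13 had such a p. The third held member was Snora73b, a nucleolar RNA that takes part in ribosomal RNA processing. It ran from 7.14 to 8.30 in proton samples (median 7.48), against 7.03, 6.92 and 6.38 in sham samples, without overlap, a difference of 0.82 ± 0.14 (adjusted p = 0.0975). Snora3 lay 1.12 ± 0.21 above sham (adjusted p = 0.114), with day differences of 1.26, 0.58, 2.11, 1.07 and 0.55. Its second probe set gave 0.63. Box C/D RNAs, the class that guides methylation, were also above sham, such as Snord104 at 0.46 ± 0.09 and Snord22 at 0.55 ± 0.13. Rnu12, which encodes U12 snRNA of the minor spliceosome, lay 0.66 ± 0.14 above sham but overlapped it, from 6.12 to 7.83 in proton samples against a sham mean of 6.29. At the lower end, Snord57 stood at 0.07 ± 0.07. The family's medians for days 1, 3, 5, 12 and 26 were 0.23, 0.01, 0.61, 0.45 and 0.50, so the day 3 median was level with the pooled sham. The family's mean signal was 6.89 in the day 3 sham, against 7.243 and 7.271 in the day 1 sham samples. The day 3 proton samples, at 7.417, 7.207 and 7.065, all lay above the day 3 sham.

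Most of these RNAs are cut from the introns of longer genes, and the members are not independent of each other. In RefSeq (GRCm38.p6), 33 of the 35 lie inside the span of another gene, strand not considered. Snora16a and Snora44 both lie in Snhg12, Snora73a and Snora73b in Snhg3, and Scarna13 in Snhg10. For 14 of the 35 the enclosing gene was itself measured, which gave 12 genes. The median of these 14 small RNAs was 0.30, while the median of their 12 enclosing genes was 0.00, with 6 above sham, 1 higher and 1 lower at an unadjusted p under 0.05. The enclosing genes of Scarna13, Snora16a and Snora73b were not measured, so the members that passed or were held are absent from this contrast. Rpl27a, a ribosomal protein gene that encloses Snora3, stood at -0.13 ± 0.07, and Rps3, which encloses Snord15a and Snord15b, at 0.08 ± 0.06. Gas5, a noncoding host of many nucleolar RNAs, was the higher one, at 0.35 ± 0.10 (limma, adjusted p = 0.293). This look-up was added after the values were seen. Snora73a and Snora73b are near-identical copies, and the array may not separate them.

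The held genes also included the splicing factors Srsf1 and Tra2a. Srsf1, a founding SR protein that promotes exon inclusion, ran from 7.87 to 8.18 in proton samples (median 7.97), against 7.54, 7.80 and 7.37 in sham samples. The groups were separate, with a difference of 0.44 ± 0.08 (adjusted p = 0.115). Tra2a, another SR-like splicing activator, was 0.36 ± 0.07 above sham (adjusted p = 0.137). Of 15 measured SR proteins and splicing regulators, a list added after values were seen, 14 were above sham and 5 had an unadjusted p under 0.05 (33.3%, against 6.19% of all genes), among them the kinases Clk1 at 0.34 ± 0.11 and Clk4 at 0.26 ± 0.08, which phosphorylate SR proteins. The 5 also include Srsf1 and Tra2a themselves, already chosen as held genes of these data. Tra2b, the closest relative of Tra2a, stood at 0.01 ± 0.09, and the list's median was 0.13.

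Pde7a, a phosphodiesterase that breaks down cyclic AMP, had the smallest SE of the 3 genes that rose. Its log2 signal ran from 7.85 to 8.73 in proton samples (median 8.38), against 7.80, 7.77 and 7.71 in sham samples. Every proton sample lay above every sham sample, although at day 1 by very little. It rose by 0.52 ± 0.06, a fold of 1.43 (limma, adjusted p = 0.0174). The call was lost without proton day 1 replicate 2, day 3 replicate 1 or either day 26 replicate, or without any sham array (adjusted p from 0.0563 to 0.142), while the difference stayed between 0.49 and 0.54. The day differences were 0.14, 0.90, 0.53, 0.29 and 0.72 at days 1, 3, 5, 12 and 26, and because day 1 had a p of 0.14, Pde7a is not among the 40 genes held at every day. The order of days differed from that of Scarna13, with the highest value at day 3. Of the 14 measured cyclic nucleotide phosphodiesterases, 7 were above sham and 7 below, with a median of 0.02. Pde3b, at 0.60 ± 0.26, and Pde11a, at 0.33 ± 0.11, had an unadjusted p under 0.05 as well, and all Pde11a proton samples lay above sham. Pde7b, the other member of its subfamily, stood at -0.03 ± 0.09, and Pde3a and Pde4d, major cyclic AMP phosphodiesterases of heart muscle, at 0.09 ± 0.09 and 0.06 ± 0.09.

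ER chaperones lay above sham with few exceptions. Of 25 measured chaperones and folding enzymes, 24 were above sham, 17 had an unadjusted p under 0.05 (68%, against 6.19% of all genes), none was lower at that level and none passed the adjusted threshold. In the time-matched fit of days 1 and 3, 7 of the 25 had such a p (median 0.20), and with equal array medians 12 did (median 0.27). The median difference was 0.30, a value that stood at 0.20, 0.18, 0.27, 0.37 and 0.43 at days 1, 3, 5, 12 and 26. Hsp90b1, the HSP90 of the ER also called GRP94, was held at every day. It ran from 9.62 to 10.15 in proton samples (median 9.83), against 9.21, 9.53 and 9.15 in sham samples. The groups did not overlap, and the difference was 0.55 ± 0.09 (adjusted p = 0.0905). Hspa5, the master chaperone BiP that also keeps the stress sensors silent, ran from 10.32 to 10.83 in proton samples (median 10.52), against 10.18, 10.28 and 10.04 in sham samples. These groups were separate too, with a difference of 0.37 ± 0.07 (adjusted p = 0.114) and day values of 0.26, 0.27, 0.38, 0.37 and 0.59. Larger but less steady were Sdf2l1, a BiP partner, at 0.61 ± 0.12, Pdia4, a disulfide isomerase, at 0.60 ± 0.17, and Hyou1, a large ER chaperone, at 0.56 ± 0.13. For Sdf2l1 the day differences were 0.20, 0.20, 0.50, 0.89 and 1.28, in order of time. The calcium-binding lectin chaperones Calr and Canx were at 0.29 ± 0.08 and 0.16 ± 0.06. At the other end, Pdia5 stood at -0.03 ± 0.11 and Ppib at 0.08 ± 0.08.

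**Figure D4:**
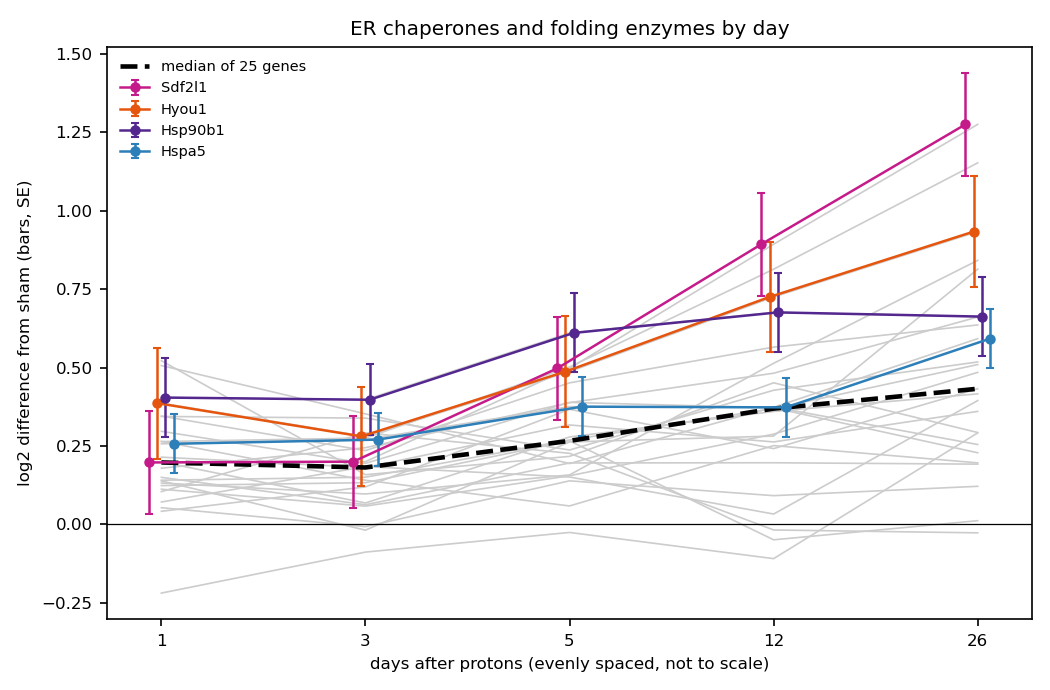
Log2 difference from sham (y axis) of 25 ER chaperones and folding enzymes at each day after protons (x axis, evenly spaced), as grey lines, with 4 genes in colour (bars, SE) and the list median dashed. The median goes through 0.20, 0.18, 0.27, 0.37 and 0.43, and Sdf2l1 reaches 1.28 at day 26.

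The promoters of some of these chaperones carry a known element, the ER stress response element (ERSE), to which Atf6 binds together with NF-Y. The 250 bases before the start of the 2 held chaperones are shown from RefSeq (GRCm38.p6), written along the gene from 5′ to 3′, with matches to CCAAT, 9 bases of any kind, CCACG in capitals. Hspa5 (chr2:34771840-34772089, plus strand) holds 1 match and Hsp90b1 (chr10:86705445-86705694, minus strand) holds 2, the second on the opposite strand.
Hspa5: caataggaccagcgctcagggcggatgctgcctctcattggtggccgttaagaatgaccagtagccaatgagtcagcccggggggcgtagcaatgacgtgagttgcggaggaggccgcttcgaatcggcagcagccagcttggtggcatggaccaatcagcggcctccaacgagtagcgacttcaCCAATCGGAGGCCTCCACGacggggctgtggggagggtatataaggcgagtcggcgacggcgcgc
Hsp90b1: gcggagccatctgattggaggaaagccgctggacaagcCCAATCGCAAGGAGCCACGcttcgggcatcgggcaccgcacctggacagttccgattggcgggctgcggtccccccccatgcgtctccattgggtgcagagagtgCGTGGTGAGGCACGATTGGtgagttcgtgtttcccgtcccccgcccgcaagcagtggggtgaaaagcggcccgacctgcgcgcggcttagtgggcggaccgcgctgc

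Both strands of all 32817 RefSeq windows of 250 bases before and 50 after a gene's start were searched, and 39 windows held an ERSE (0.119%). Among the 25 chaperones, 22 had a window and 8 of these held the element. The sites of 4 of the other chaperones are shown on the strand that reads CCAAT first, with the fixed letters in capitals, to show how far the 9 middle bases differ.
Dnajc3: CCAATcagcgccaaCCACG
Calr: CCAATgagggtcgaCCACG
Pdia6: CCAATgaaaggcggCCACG
Canx: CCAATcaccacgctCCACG
They lie at chr14:118937827-118937845, chr8:84847075-84847093, chr12:17266491-17266509 and chr11:50325800-50325818, between 98 and 162 bases before the start. The 8 chaperones with the element differed from sham by 0.16 to 0.55 (median 0.36), and the 14 with a window but no match by -0.03 to 0.61 (median 0.25). The variant ERSE-II, ATTGG, 1 base of any kind, CCACG, whose first 5 letters are the reverse complement of CCAAT, occurred in 12 windows (0.0366%), among them those of Dnajb11 and Herpud1. Among the 14 sensor and PERK genes with a window, and the 17 translocon genes with one, 0 held an ERSE. A match describes letters and does not show that a factor bound there. Of the ER degradation genes, Syvn1 and Derl3 held an ERSE, and stood at 0.31 ± 0.08 and -0.12 ± 0.20.

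The other arms of the ER lay above sham less evenly. Of 15 measured sensors and targets of Eif2ak3, which encodes PERK, 14 were above sham and 6 had an unadjusted p under 0.05 (40%, against 6.19% of all genes), with a median of 0.25. Xbp1, the factor whose mRNA is spliced by the sensor Ern1, was at 0.35 ± 0.08, Eif2ak3 at 0.40 ± 0.15 and Ern1 at 0.29 ± 0.11. Ddit3 (CHOP), which is known for driving cell death under lasting ER stress, stood at -0.05 ± 0.25, and Atf4 at 0.05 ± 0.11. Of 17 genes of ER-associated degradation, 14 were above sham and 5 had an unadjusted p under 0.05 (29.4%), with a median of 0.12. They included Herpud1 at 0.39 ± 0.10, a ligase scaffold, and the retrotranslocation ligase pair Syvn1 and Sel1l, both at 0.31 with SEs of 0.08 and 0.09. Of 23 translocon and signal peptidase genes, 16 were above sham and 5 had such a p (21.7%), with a median of 0.13, led by Sec61a1, the pore itself, at 0.41 ± 0.15.

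Markers of other cells also varied between samples, as the ranges given above show, and the part they play in the ER differences was not tested. With the mean of the airway genes as a covariate, added after values were seen, the median of the chaperones was 0.15 with 10 of 25 at an unadjusted p under 0.05 and none held at every day. Under the same covariate the translocon median was 0.04 and that of ER-associated degradation -0.01. With the mean of endothelial, fibroblast and macrophage markers as a covariate, the chaperone median was 0.22 and that of the sensors 0.13. Without the 3 arrays that stood apart, the chaperone median was 0.27, with 16 of 25 at that level. The small RNA family's median was 0.36, 0.37 and 0.37 in these 3 fits, in the order given. Past the adjusted threshold were 0, 7 and 5 of its members, against 2 in the main fit. The part that other cells play in the small RNA differences was not tested either.

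Further held genes are described next by the compartment of their protein. Most lie outside the rule for named genes, and they were chosen and grouped after their values were seen, with no test of the grouping. Slc30a5, which carries zinc into the early secretory pathway, ran from 7.21 to 7.56 in proton samples (median 7.39), against 6.85, 6.96 and 7.00 in sham samples. Its groups were far apart for their spread, with a difference of 0.45 ± 0.08 (adjusted p = 0.113). Ddost, a subunit of the oligosaccharyltransferase that attaches sugar chains, was at 0.32 ± 0.07 and without overlap. Of the 10 measured subunits of that complex, a list added after values were seen, 9 were above sham, with a median of 0.23. An unadjusted p under 0.05 was found for 5 (50%, against 6.19% of all genes). These 5 include Ddost itself, already chosen as a held gene of these data. Tgoln1, a trans-Golgi protein, was at 0.49 ± 0.11, Rnf103, an ER ubiquitin ligase, at 0.33 ± 0.08, and Tmem109, a protein of the ER and outer nuclear membrane, at 0.39 ± 0.06 (adjusted p = 0.0905). Sppl3, a Golgi protease that trims glycosyltransferases, was at 0.26 ± 0.07 and Serinc1, a membrane protein linked to serine lipids, at 0.29 ± 0.07.

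The held genes included Slc15a4 and Tpp1 of the lysosome list. Slc15a4, a lysosomal histidine and peptide carrier, ran from 6.81 to 7.28 in proton samples (median 7.07), against 6.68, 6.73 and 6.48 in sham samples. The groups did not overlap, at a difference of 0.42 ± 0.08 (adjusted p = 0.132). Tpp1, a lysosomal peptidase, was at 0.34 ± 0.10, Atg9a, which supplies membrane to forming autophagosomes, at 0.28 ± 0.08, and Clcn4, an endosomal chloride-proton exchanger, at 0.29 ± 0.06. Tmem59, a regulator of Golgi glycosylation, was held as well, at 0.21 ± 0.06. Of 22 measured lysosomal genes, a list added after values were seen, 20 were above sham and 10 had an unadjusted p under 0.05 (45.5%, against 6.19% of all genes), among them Npc1, the cholesterol exporter, at 0.35 ± 0.10 and the protease Ctsd at 0.15 ± 0.04. The 10 also include Slc15a4 and Tpp1, already chosen as held genes of these data. Tfeb, the main transcription factor of lysosomal genes, stood at -0.13 ± 0.08. The list's mean was highest in the 3 proton arrays that stood apart, at 8.78, 8.86 and 8.89 in day 1 replicate 2, day 3 replicate 3 and day 12 replicate 2. Sham day 1 replicate 2, at 8.67, lay above 2 proton samples. Without the 3 arrays the list's median was 0.11, against 0.15 with them, and 7 had such a p.

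Among genes with a role in heart muscle itself, Hrc, which binds calcium in the sarcoplasmic reticulum, was held at every day. It ran from 9.84 to 10.07 in proton samples (median 9.94), against 9.64, 9.77 and 9.78 in sham samples. The difference was small but without overlap, 0.24 ± 0.05 (adjusted p = 0.187). Of 18 measured calcium handling genes 13 lay above sham (median 0.07) and 2 had an unadjusted p under 0.05 (11.1%, against 6.19% of all genes higher), Hrc and the L-type channel Cacna1c at 0.21 ± 0.10. The calcium pump Atp2a2 stood at 0.02 ± 0.03, its inhibitor Pln at -0.01 ± 0.03 and the release channel Ryr2 at 0.10 ± 0.08. Orai2, a store-operated calcium channel, was at 0.76 ± 0.14 (adjusted p = 0.114), while its dimmer probe set gave 0.15. Vldlr, the receptor for triglyceride-rich lipoproteins, ran from 9.72 to 9.94 in proton samples (median 9.79), against 9.41, 9.64 and 9.39 in sham samples, again apart, at 0.31 ± 0.06 (adjusted p = 0.114). Gpam, which begins triglyceride synthesis, was at 0.24 ± 0.06, Nceh1, a cholesterol ester hydrolase, at 0.25 ± 0.07, and Nampt, which makes the precursor of NAD, at 0.21 ± 0.05.

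The classical radiation response was represented by few of the genes measured. Trp53inp1, a p53 target that promotes cell death and autophagy, ran from 7.27 to 8.43 in proton samples (median 7.81), against 7.04, 7.13 and 7.11 in sham samples. All proton samples were above sham, with wide scatter, at 0.75 ± 0.18 (adjusted p = 0.235). Phlda3, a p53-induced inhibitor of Akt, was at 0.38 ± 0.08 (adjusted p = 0.187), and Eda2r, a p53-induced receptor, at 0.50 ± 0.16, both without overlap. Of 28 listed p53 targets, Cdkn1a and Bax had no probe set with 1 gene symbol, and Pmaip1 and Ddb2 fell below the signal limit. Of the 24 measured p53 targets 13 were above sham and 11 below, with a median of 0.04. At an unadjusted p under 0.05, 4 were higher (16.7%, against 6.19% of all genes) and 1 lower (4.17%, against 5.86%). Mdm2, the p53 ligase, stood at -0.01 ± 0.08 and Ccng1, the lower one, at -0.09 ± 0.03. None of 18 DNA double-strand break repair genes reached that level in either direction, and their median was -0.05.

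The innate immune receptor Tlr4, at 0.45 ± 0.11 (adjusted p = 0.235), and the membrane protein Tmem168, at 0.46 ± 0.09, were also held. So was Mir504, a microRNA gene, at 0.46 ± 0.09 (adjusted p = 0.114), from 5.55 to 6.18 in proton samples against 5.29, 5.20 and 5.30 in sham samples. In human cells, miR-504 is known to target p53. Its mature 5′ strand in RefSeq (GRCm38.p6, chrX:59097705-59097726, minus strand) is shown with the seed, bases 2 to 8, in capitals.
mmu-miR-504-5p: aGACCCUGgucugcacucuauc
The probe set does not tell the mature RNA from its precursor or host transcript.

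Igha, the heavy chain of the IgA antibody, had the largest difference of the held genes. It ran from 4.53 to 5.92 in proton samples (median 5.47), against 3.71, 3.50 and 4.14 in sham samples. The groups did not overlap, at 1.60 ± 0.26 (adjusted p = 0.0905), and its second probe set, with a mean of 4.90, gave 0.97. The mean of Igha over all arrays, 5.03, was just above the signal limit of 5.00. All its sham values lay below that limit, so Igha entered the comparison only through its proton samples. Jchain, which joins IgA units, lay 1.36 ± 0.53 above sham, while Ighm was at 0.25 ± 0.18 and Sdc1, a plasma cell surface protein, at -0.28 ± 0.11. The airway genes differed from sham by more, with Scgb1a1, the club cell secretory protein, at 2.21 ± 0.81 and Scgb3a1, another secretoglobin, at 1.80 ± 0.79, but scattered widely within groups. With the airway mean as a covariate the difference of Igha was 1.54, and with the other-cell markers as a covariate it was 1.40.

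The 10 genes held below sham came from unrelated lists or none. Car14, a membrane carbonic anhydrase of heart muscle, ran from 9.38 to 9.81 in proton samples (median 9.65), against 9.90, 9.89 and 10.04 in sham samples. The groups did not overlap, and the difference was -0.35 ± 0.05 (adjusted p = 0.0725), the fourth smallest p of all genes. By day it stood at -0.23, -0.19, -0.29, -0.50 and -0.56. Glrx, the glutaredoxin that removes glutathione from proteins, ran from 7.33 to 8.12 in proton samples (median 7.76), against 8.30, 8.22 and 8.68 in sham samples, without overlap, at -0.63 ± 0.11 (adjusted p = 0.113). Smim5, a small membrane protein, had the largest difference of the 10, -0.66 ± 0.12 (adjusted p = 0.114). Adh5, which clears formaldehyde and S-nitrosoglutathione, was at -0.31 ± 0.06 and Ndufaf2, an assembly factor of respiratory complex I, at -0.43 ± 0.11. Mlx, the partner of glucose-sensing transcription factors, was at -0.36 ± 0.09, Fzd6, a Wnt receptor, at -0.33 ± 0.08, and Usp46, a deubiquitinase, at -0.37 ± 0.10. The last were Raver2, an RNA-binding protein, at -0.41 ± 0.10 and Anapc15, a subunit of the anaphase-promoting complex, at -0.41 ± 0.12, whose second probe set gave -0.20.

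Mitochondrial and contractile genes lay slightly below sham in large numbers. Of 35 measured genes of respiratory complexes III to V, 32 were below sham and 11 had an unadjusted p under 0.05 in that direction (31.4%, against 5.86% of all genes), with a median of -0.08. Cyc1, cytochrome c1, was at -0.10 ± 0.04 and Atp5l, an ATP synthase subunit, at -0.15 ± 0.05. Of 34 complex I genes 28 were below sham and 4 reached that level (11.8%). The largest were Ndufv3 at -0.36 ± 0.14 and Ndufb3 at -0.30 ± 0.07. Of 23 citric acid cycle genes 18 were below and 4 reached that level (17.4%), with a median of -0.07. Of 27 fatty acid uptake and oxidation genes 16 were below and 11 above, with 2 lower and 2 higher at an unadjusted p under 0.05. Of 27 sarcomere genes 22 were below and 8 were lower at that level (29.6%), with troponins Tnnc1 at -0.11 ± 0.04 and Tnnt2 at -0.08 ± 0.03. Of 47 cytosolic ribosomal protein genes 36 were below, with a median of -0.05. At an unadjusted p under 0.05, 5 of them were lower (10.6%) and 2 higher (4.26%). No gene of these lists passed the adjusted threshold. In the time-matched fit of days 1 and 3, complexes III to V had a median of -0.08, with 29 of 35 below sham. Only 1 was lower at an unadjusted p under 0.05. For complex I the time-matched median was -0.09, with 28 of 34 below and 2 lower at such a p. The means of both respiratory chain lists were lowest in the 3 arrays that stood apart, at 11.15, 11.14 and 11.08 for complexes III to V in day 1 replicate 2, day 3 replicate 3 and day 12 replicate 2, against 11.20 to 11.28 in sham samples. Without these arrays the median of complexes III to V was -0.06, with 27 of 35 below sham and 3 lower at an unadjusted p under 0.05, and that of complex I was -0.05, with 25 of 34 below. Of the 10 cardiomyocyte markers 8 were below sham as well, with a median of -0.05, and the part that RNA of other cells plays in these small differences was not tested.

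**Figure D5:**
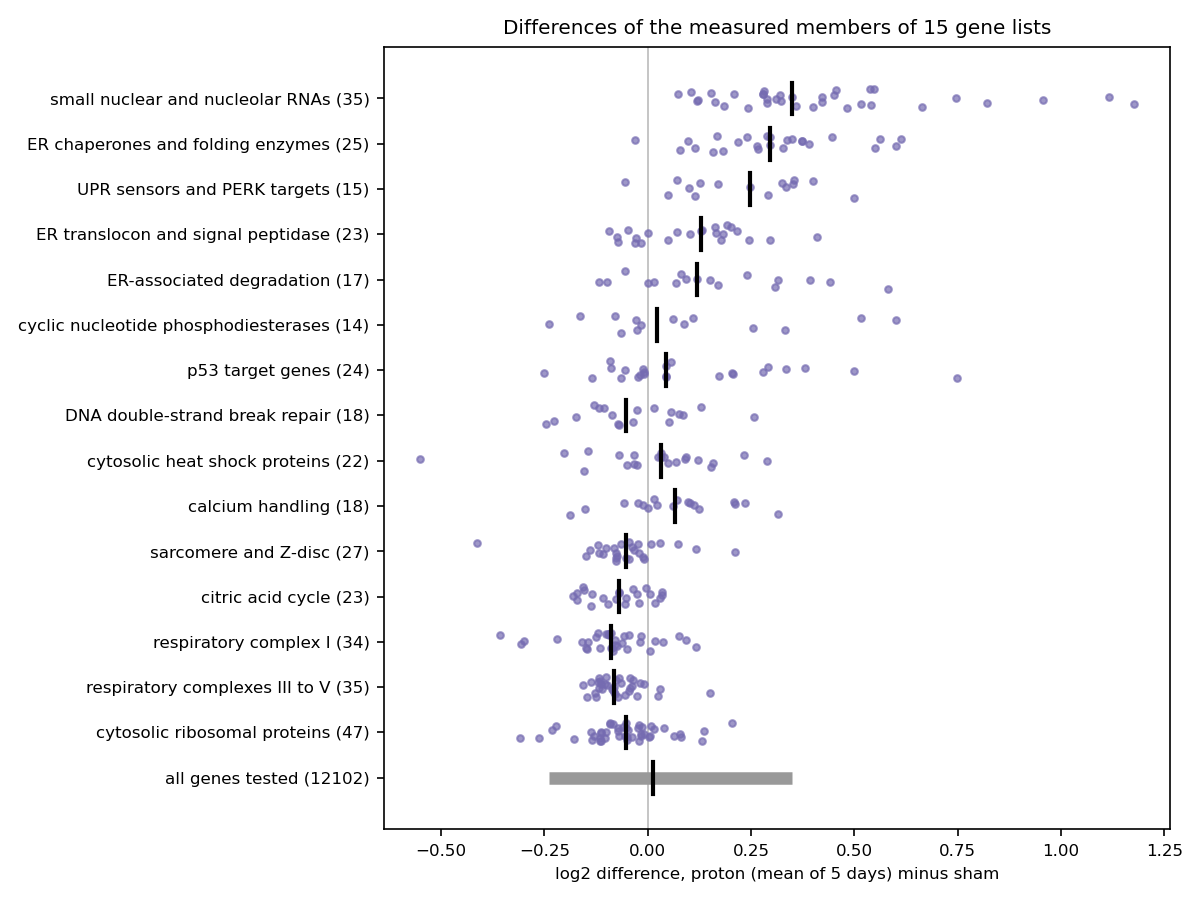
Log2 difference, proton minus sham, averaged over the 5 days (x axis), of the measured members (points) of 15 gene lists (rows), with black lines at the medians and the grey bar spanning the central 90% of all genes tested. Small RNAs (median 0.35) and ER chaperones (0.30) lie to the right, and respiratory complexes III to V (-0.08) lie narrowly to the left.

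Whether the proton days differed from each other was asked with an F-test in the same fit. No gene passed an adjusted p of 0.05 (limma, smallest value 0.0868, shared by Pde7a and Rnu12), and 1020 had an unadjusted p under 0.05 (8.43%). Among the 40 held genes, 7 had such a p. A p above the threshold does not show that the days were alike. Scarna13 and Snora16a were lowest at day 3 and highest at day 5, Pde7a was lowest at day 1 and highest at day 3, and Car14 and Hspa5 were farthest from sham at day 26.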

How the data were processed

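Left-ventricular cardiomyocyte RNA had been hybridised to Affymetrix mouse gene arrays, and the authors deposited 1 table of log2 signals for 34760 probe sets and 15 arrays. The submitters' processing notes name MAS5 without a version, and background correction and normalization are not given in the sources used here. Array medians lay between 4.90 and 5.16, and the deposited values were used unscaled. The array annotation gave 1 symbol for 21640 probe sets, several for 1321 and none for 11799, and 21553 of the first matched RefSeq (GRCm38.p6). Titles give days 1, 3, 5, 12 and 26, while the series' text gives a differing set, and the titles were followed.

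Limma 3.58.1 in R 4.3.3 (lmFit, eBayes with a variance trend) fitted 6 groups (5 proton days and sham, 14 samples, 8 residual degrees of freedom, 12.1 in the moderated test), and the contrast was the mean of the 5 proton day means minus sham. Held genes needed an unadjusted p of 0.05 at each day. The fit was tested on simulated data. Lists, motifs and figures were computed in Python 3.11.15 with pandas 2.3.3 and matplotlib 3.10.9.

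The members, the 40 gene lists and the tests were chosen with earlier results of these data known. The rule named up to 12 genes per direction by p, up to 12 per direction held at every day, 2 to 6 members of each list, 11 fixed genes and the 5 smallest F-test p-values. Further held genes and list members, and 5 added lists, were chosen after values were seen. Cdkn1a was not analysed here. Myh6, Nppa and Nppb, fixed genes, changed sign with the setting and are given no difference. Alternatives covered the averaged pair, normalization, filter, probe sets, variance model, controls, covariates, a replicate block, and each sample and day left out. To check pairing, residuals were correlated in 31 pairs of arrays with a common number. The median was -0.0063 and only 10 exceeded 0.1, so the numbers were not treated as pairs.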

Additional observations from a re-analysis of the deposited data

Results flagged for a closer look

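Among 17380 probe sets above the signal limit, 4225 had no single gene symbol and lay outside the comparison of genes. Of these, 1 passed an adjusted p of 0.05 when all probe sets were tested together. Probe set 10343915 had a log2 signal of 7.27 ± 0.387 in proton samples (SD, n = 11), against 6.34 ± 0.0867 in sham samples (SD, n = 3). It rose by 0.89 ± 0.12 (SE; limma, adjusted p = 0.0355), and every proton sample lay above every sham sample. The annotation used here gives it no gene. Among all probe sets, 5 passed, 4 of them higher. Probe set 10419354 was lower, with a difference of -0.87 (limma, adjusted p = 0.0397). It carried 1 gene symbol but was not the brightest probe set of its gene, so it lay outside the comparison of genes. No group of arrays was large enough, at 2 or 3 samples, for a check on single outlying samples.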

How the results depend on the processing

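With 3 sham samples, the calls depended on the setting. All 40 held genes kept their direction in each of the 39 other settings compared by gene, where measured, but they were chosen for 1 direction at every day. The number of genes past the adjusted threshold, 3 as reported, was 10 with all 15 arrays separate, 5 with all probe sets, 24 with array weights, 21 with the marker covariate, 12 without the 3 arrays that stood apart and 1 with equal medians. It was 0 with 2 groups (days as replicates or as a random block), with sham of day 1 only, time-matched, with no shared spread, without day 5, without day 26 and with the airway covariate. Leaving out 1 array gave 0 to 3. A single gene passed (1) when the first day 26 proton array or the second day 1 sham array was dropped. The count was 0 without proton day 1 replicate 2, day 3 replicate 1 or day 26 replicate 2, and without sham day 1 replicate 1 or the day 3 sham, where Scarna13 had adjusted p-values from 0.0563 to 0.142. Over all its settings Scarna13 ranged from 0.87 to 1.41, Pde7a from 0.42 to 0.61 and Snora16a from 0.80 to 1.08.

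The 40 held genes became 61 with 15 arrays, 64 with array weights, 25 with sham of day 1 only, 6 at a p of 0.01, 65, 89 and 72 without days 1, 3 and 12, 18 without the 3 arrays and 19 with the airway covariate. Leaving out 1 array gave 14 (without proton day 1 replicate 2) to 153 (without sham day 1 replicate 2), with 18 without day 12 replicate 2, 23 without day 5 replicate 3, 26 without day 26 replicate 1 and 25 without the day 3 sham. The 210 genes without overlap became 450 (sham of day 1), 644 (time-matched) and 497 (without day 3), and 210 to 1104 with 1 array out, the highest without sham day 1 replicate 2, with 380 and 450 without the other sham arrays, since fewer samples leave less to overlap. Genes that differed among proton days, 0 as reported, were 11 (15 arrays), 20 (array weights), 2 (time-matched), 80 (marker covariate), 14 (replicate block), 3 (without day 12), 209 (without the 3 arrays) and 4 (airway covariate), and 0 to 5 with 1 array out. With the replicate block the genes past the threshold were 4 and the held genes 41, and Pde7a had an adjusted p of 0.0705, but the numbers do not pair the samples.

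List medians moved as follows. Small RNAs stood at 0.18 time-matched, chaperones at 0.15 and ER-associated degradation at -0.0051 with the airway covariate, translocon genes at 0.040 with it and 0.050 with the marker covariate, and sensors at 0.13 with the marker covariate. With 1 array out they lay between 0.26 and 0.43 for small RNAs, 0.27 and 0.33 for chaperones, 0.06 and 0.19 for degradation, 0.18 and 0.31 for sensors and 0.10 and 0.15 for the translocon. The causes were not tested.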

Other observations

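Several lists outside the response described above are given here, and not all of them leaned one way. All 20 immediate early genes, transcription factors switched on within minutes of a stimulus, lay above sham (median 0.20). Only Jund had an unadjusted p under 0.05, at 0.22 ± 0.07. The sham samples were unlike each other, with means of these genes at 7.46, 7.19 and 7.95. The proton samples ran from 7.45 to 8.16 (median 7.56), so the groups overlapped widely. Of 17 STAT3 and acute phase genes 14 lay above sham (median 0.29), and 5 had such a p (29.4%, against 6.19% of all genes), among them Hp, haptoglobin, at 1.17 ± 0.47 and Osmr, the oncostatin M receptor, at 0.78 ± 0.27. The list's mean was highest in the 3 proton arrays that stood apart, at 7.45 to 7.69, against 6.76 to 7.08 in sham samples, and without them its median was 0.11. Of 25 antioxidant genes, 10 lay above sham and 15 below (median -0.04). Such a p was found for 6 below sham (24%, against 5.86% of all genes) and none above. They included Gsta4, a glutathione transferase that clears lipid peroxides, at -0.30 ± 0.07 and Prdx3, the mitochondrial peroxiredoxin, at -0.14 ± 0.06. Of 22 cytosolic heat shock genes, 13 lay above sham and 9 below (median 0.03), so most went against the members lower at that level. At that level 0 were higher and 3 lower (13.6%, against 5.86% of all genes). All 3 were of the small heat shock family, namely Hspb3 at -0.55 ± 0.16, Hspb7 at -0.15 ± 0.04 and Hspb6 at -0.14 ± 0.05. None of these genes passed the adjusted threshold in limma.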
